A study of Coregonus lavaretus with 13 samples.

Results

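In the livers of whitefish sampled 6 days after an injection of microcystin-LR (MC-LR), 194 abundant putative long non-coding RNAs (lncRNAs) kept a median of 10.5% of the level measured in control livers. Summed over all 194 contigs, 931485 ± 151560 normalized counts per control liver (SD, n = 4) stood against 54145 ± 10933 per exposed liver (SD, n = 3), so that 5.81% of the summed level was left. With TMM of the listed contigs, a scaling that treats most contigs as equal between groups, the median was 21.6% and the summed level left 12.3%. These RNAs were chosen by their counts. They are the contigs that the authors listed for day 6 and for neither day 1 nor day 9, with a mean of at least 200 raw reads over the control fish, a lower mean in the day 6 fish and at least 1 read in the day 6 fish. They made up 194 of the 3866 contigs in the day 6 table (5.02%) and of the 4729 contigs listed on any day. Another 3 contigs met every condition except that no day 6 fish held a read of them.

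The fish were juvenile whitefish (*Coregonus lavaretus*, Rutki-strain), and each library came from the liver of 1 animal. The control group was 4 fish injected intraperitoneally with phosphate buffered saline (PBS), the solvent of the toxin, and sampled at day 1, and the exposed group was 3 fish that had received 1 injection of MC-LR, dosed by body mass at 100 μg per kg, and were sampled at day 6. The series also holds 3 MC-LR fish of day 1 and 3 of day 9, for which only the contigs listed on those days had counts, and the day 9 fish had been injected again after 7 days. Because the controls were taken at day 1 and each group had its own tank, the toxin, the time since injection and the tank cannot be told apart.

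MC-LR is a cyanobacterial peptide toxin that enters hepatocytes through bile acid and anion transporters and inhibits serine/threonine protein phosphatases. A lncRNA is a transcript longer than a small RNA that is not translated into a protein, and members of this class are known to act on chromatin, transcription, splicing or the stability of other RNAs, often at low levels and in a limited number of tissues. Only polyadenylated transcripts were sequenced here. The 194 contigs have no gene name, genome position or known role: they are Trinity contigs, transcripts assembled without a genome, which the authors called non-coding because no coding potential and no homology to known sequences was found. A Trinity identifier gives the read cluster (DN), the component (c), the gene (g) and the isoform contig (i), and the prefix TRINITY_ is left out below. Without gene names, neither liver cell markers nor markers of other cells could be checked in these libraries, and in bulk liver RNA fewer cells of a type and less RNA per cell cannot be told apart.

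The counts of the listed contigs summed to between 1738607 and 2100955 reads per PBS fish and to between 979744 and 1188494 per day 6 fish, which is a part of each library and not its depth. No 2 fish held identical counts. Levels below are normalized counts, which are reads divided by the size factor of the library, and the level left is the mean of the day 6 fish as a percentage of the mean of the PBS fish. Contig lengths were not used, so levels of different contigs are not per length. Differences on the log2 scale are the mean log2(normalized count + 1) of the day 6 fish minus that of the PBS fish.

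In control livers these RNAs held a large share of the counts of the listed contigs, which are a part of each library. They made up 38.5 to 51.5% of the normalized counts of the whole day 6 table in the PBS fish and 4.0 to 6.63% in the day 6 fish. That table also holds raised contigs. Of the counts of its lowered contigs alone, the 194 held 40.2 to 54.0% in the PBS fish and 40.1 to 43.3% in the day 6 fish. The summed level was 719777, 1025930, 1054521 and 925711 in PBS fish 1 to 4, and 54055, 65122 and 43257 in day 6 fish 1 to 3. The groups did not overlap, and PBS fish 1 was the lowest of the controls. Of the 10 contigs with the highest PBS level in the table, 6 were among the 194, and of the 100 highest, 38 were. The minimum PBS level in the choice of the 194 favours such ranks and a large share of the counts. Of the 646 lowered contigs with the same minimum level, the 194 were 30.0%. The 6 most abundant of the 194 held 49.1 to 61.4% of their sum in the PBS fish and 9.59 to 20.1% in the day 6 fish. Without these 6, the remaining sum was 409397 ± 55777 (SD, n = 4) in PBS and 45608 ± 6463 (SD, n = 3) on day 6. The order of abundance also differed between the groups. DN96077_c2_g1_i1 was the most abundant of the 194 in each of the 4 PBS fish, whereas DN81558_c5_g1_i2 was the most abundant in each of the 3 day 6 fish, where it made up 12.6 to 19.2% of the sum.

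The extent to which the level was lowered varied widely among the 194. The level left ranged from 0.156% to 50.8%, and its middle 50% lay between 3.24% and 24.9%. Under 1% was left in 17 contigs, 1 to 5% in 48, 5 to 10% in 30, 10 to 25% in 53, 25 to 40% in 39 and over 40% in 7. The median difference was -2.86 on the log2 scale (range -8.76 to -0.99). Over all 2555 lowered contigs of the day 6 table it was -3.84, with a median of 3.48% left. That wider set has no minimum PBS level and includes contigs without a read in any day 6 fish, so the medians are of unlike sets. Contigs with a higher PBS level kept a smaller percentage of it. A median of 15.4% was left in the 75 contigs with a PBS mean under 400, 14.6% in 64 contigs between 400 and 1000, 5.50% in 30 between 1000 and 5000, 4.24% in 12 between 5000 and 20000, and 2.17% in the 13 above 20000. Both measures share the PBS value, so this order is given as a description.

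**Figure D1:**
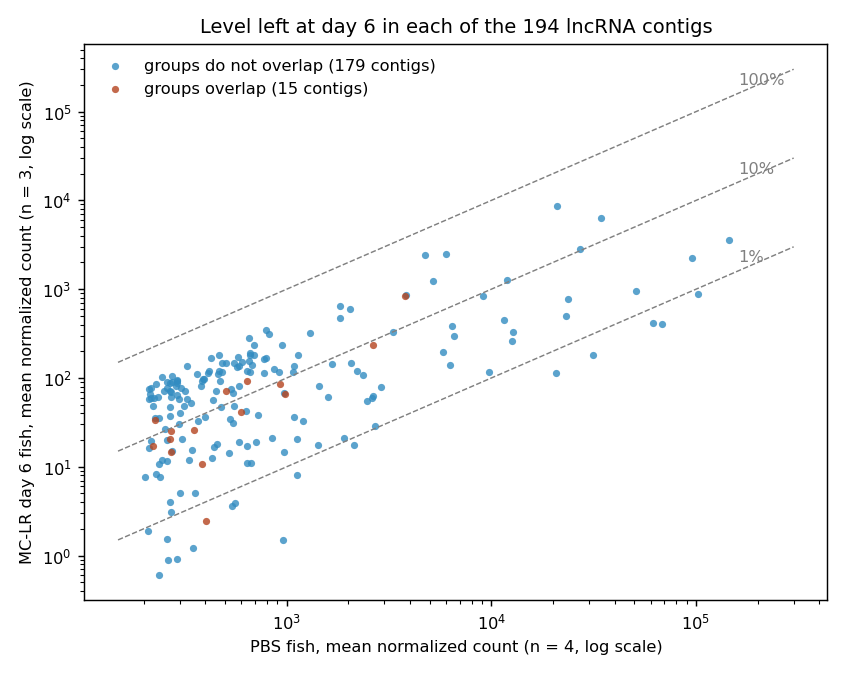
Mean normalized count of each of the 194 contigs in the PBS fish (n = 4, horizontal log axis) and in the MC-LR fish of day 6 (n = 3, vertical log axis), with dashed lines where 100%, 10% and 1% of the PBS level is left. All points lie below the 100% line, 17 lie below the 1% line, and the 15 contigs whose groups overlap are coloured red.

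Every day 6 fish lay below every PBS fish in 179 of the 194 contigs (92.3%), beside 64.6% of all contigs in the table and 97.7% of its lowered ones. The log2 difference was below -2 in 148 of them (76.3%), beside 62.4% of all contigs and 94.4% of the lowered ones. The paper names a log2 fold change beyond 2 in either direction and an adjusted p under 0.001 as its cutoffs. By the measure used here the rest of the 194 did not reach that fold change, so being listed does not mean passing both cutoffs. In edgeR's quasi-likelihood test with Benjamini-Hochberg adjustment over the 3866 listed contigs, 107 of the 194 (55.2%) were lower at an adjusted p under 0.001, beside 43.7% of all contigs and 66.1% of the lowered ones. The contigs had been listed and selected on these same fish, so these counts describe them and are no independent test. Without day 6 fish 1, 2 or 3 the edgeR count was 47, 53 or 55. With TMM of the listed contigs as scaling it was 57, and 101 contigs did not overlap. The shares over all contigs were not taken in these settings, so these counts have no background beside them.

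The 8 most abundant contigs showed how unequal the remaining levels were. DN96077_c2_g1_i1, the contig with the highest PBS level of the whole table, had 94722, 172450, 165629 and 145765 normalized counts in PBS fish 1 to 4 and 2425, 6472 and 1935 in day 6 fish 1 to 3. This left 2.50% of its level, a difference of -5.50 on the log2 scale (SE 0.57). DN112630_c1_g1_i2 had 82547, 111457, 129090 and 83841 in the PBS fish and 1193, 1183 and 296 in the day 6 fish, or 0.875% of its level (log2 difference -7.06, SE 0.69). In both contigs day 6 fish 3 was the lowest animal, and the groups were far apart.

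DN109941_c1_g1_i4 had 51288, 40646, 74718 and 79420 normalized counts in the PBS fish against 550, 541 and 155 on day 6, with 0.675% left (log2 difference -7.37, SE 0.65). DN80960_c1_g1_i1 had 34659, 33784, 42980 and 13845 against 181, 342 and 28.2, with 0.586% left (log2 difference -7.89, SE 1.12). In DN80960_c1_g1_i1 PBS fish 4 was well below the other controls, and the day 6 fish differed among themselves by more than the controls did. DN80551_c2_g1_i5 had 31646, 59454, 35952 and 75559 against 1567, 770 and 538, with 1.89% left (log2 difference -5.78, SE 0.54). Here fish 2 and 4 were the higher controls, and day 6 fish 1 was the highest of the exposed animals.

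DN111187_c4_g1_i11 stood apart from the other 7 by keeping 18.7% of its level. It had 23768, 55213, 41075 and 17015 normalized counts in the PBS fish and 5110, 8194 and 5882 on day 6 (log2 difference -2.30, SE 0.43). The day 6 fish were close to each other, and the controls spread more widely than they did. The remaining contigs of the 8, DN92740_c2_g3_i4 and DN114592_c6_g2_i8, are described with their isoforms below.

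**Figure D2:**
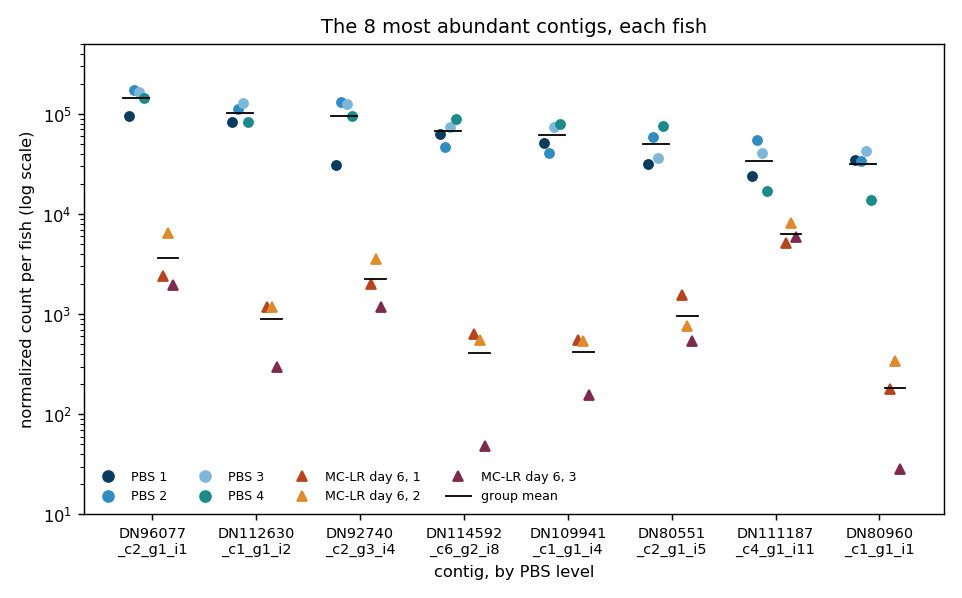
Normalized counts (vertical log axis) of the 8 contigs with the highest PBS level, with circles for PBS fish 1 to 4, triangles for MC-LR day 6 fish 1 to 3 and a line at each group mean. The groups do not overlap in any of the 8, and DN111187_c4_g1_i11 has the highest day 6 mean with 18.7% of its PBS level left.

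Among the 194, the smallest percentages were left in contigs that had almost no reads on day 6. DN97038_c1_g1_i2 had 1186, 1000, 1007 and 660 normalized counts in the PBS fish and 1.69, 2.81 and 0 in the day 6 fish, which is 0.156% of its level. This rests on 5 reads in all day 6 fish against 3711 in the PBS fish, and the exact 95% interval of the pooled ratio, which covers counting error only, was 0.0507% to 0.365%. DN97038_c0_g2_i1, from another component of the same read cluster, had 3 reads on day 6 against 1123 in PBS, with 0.310% left (interval 0.0638% to 0.907%). Both contigs of this cluster were thus near 0 in all day 6 fish, and both had their lowest control in PBS fish 4.

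DN96641_c4_g6_i1 had 2 reads on day 6, both in fish 3, against 916 in the PBS fish, or 0.255% (interval 0.0306% to 0.917%). DN108846_c5_g5_i3 had exactly 1 read in each day 6 fish against 1011 in the PBS fish, or 0.342% (interval 0.0708% to 1.01%). DN83410_c4_g1_i1 had 4 reads against 1336, or 0.346% (interval 0.0944% to 0.891%). These intervals overlap, so the order of the 5 lowest contigs cannot be read at this depth. In 18 of the 194 contigs the day 6 fish had a mean of under 10 reads. A day 6 fish without any read was found in 11 contigs, of which 9 had 1 such fish and 2 had 2, and day 6 fish 3 had no read in 9 contigs, while fish 1 and fish 2 had none in 2 each.

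At the other end, 7 contigs kept over 40% of their level, and all 7 had tight groups. The authors listed contigs by a test on these same fish, in which a small change hardly passes without tight groups. The tightness is therefore a description and no separate result. DN107573_c210_g1_i6 had 4744, 4662, 4721 and 4789 normalized counts in the PBS fish and 2686, 2022 and 2497 in the day 6 fish. With 50.8% left (log2 difference -0.99, SE 0.12), it had both the highest percentage left and the smallest spread over PBS fish of the 194. Its direction depends on the scaling: with TMM of the listed contigs, which adds 1.08 to log2 ratios before the pseudocount, its log2 difference became 0.10. With clean reads as scaling its log2 difference was -0.85. DN93331_c5_g2_i1 had 886, 708, 842 and 740 in PBS and 392, 269 and 374 on day 6 (43.5% left). DN85522_c7_g1_i1 had 618, 769, 601 and 627 against 308, 227 and 299 (42.6% left). DN98230_c1_g1_i1 and DN83285_c2_g1_i4 kept 42.3% and 41.8%. Day 6 fish 2 was the lowest exposed animal in the first 4 of these 5 contigs, and fish 3 in DN83285_c2_g1_i4. With TMM the log2 differences of DN93331_c5_g2_i1, DN85522_c7_g1_i1, DN98230_c1_g1_i1 and DN83285_c2_g1_i4 became -0.13, -0.15, -0.15 and -0.17. DN81558_c5_g1_i2, named after its values were seen because it led the day 6 livers, had 21161, 23618, 21150 and 17544 in PBS and 9382, 8214 and 8304 on day 6. It kept 41.4% of its level and was the only contig with a PBS mean above 20000 to keep over 40%.

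The exposed fish were not equally low. Day 6 fish 3 was the lowest of the 3 in 95 of the 194 contigs (49.0%), fish 2 in 57 and fish 1 in 40, with 2 contigs tied. Fish 2 was the highest in 87, fish 1 in 80 and fish 3 in 27. Scaled by clean reads in place of size factors, fish 3 was the lowest in 105, and the order of the others turned, with fish 1 the highest in 99 and fish 2 in 77. Fish 3 also had the lowest median level of the 194, with 59.1 normalized counts, against 83.5 in fish 1 and 73.9 in fish 2. In the 313 lowered contigs listed on days 6 and 9 with the same minimum level, fish 3 was the lowest in 50.5%, in the 90 such contigs listed on all 3 days in 37.8%, and in the 609 contigs lowered and listed on day 6 alone with a PBS mean under 200 in 25.6%.

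In the 3 contigs with the widest spread over day 6 fish on the log2 scale, fish 3 or fish 2 was far below the others. DN114592_c6_g2_i11 had 214, 120 and 6.37 normalized counts in day 6 fish 1 to 3, against 21251, 13508, 19661 and 27941 in PBS, so that 0.550% was left. DN114211_c26_g3_i2 had 60.2, 36.5 and 1.82, against 516, 94.5, 693 and 167. In both contigs fish 3 was more than 10 times below the other exposed animals. DN87628_c1_g1_i1 had 29.7, 0 and 6.37, against 210, 114, 486 and 169, and here fish 2 had no read.

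Control fish differed from each other as well. The highest PBS fish was more than 2 times the lowest in 123 of the 194 contigs (63.4%). It was more than 4 times the lowest in 54 (27.8%) and more than 10 times in 26. Above 2 and above 4 times, the shares were 71.5% and 33.5% of the other lowered contigs of the table. Of the 313 contigs listed on days 6 and 9 they were 59.4% and 22.4%. The share above 10 times was 13.4%. Beside it stood 4.47% of the 313 contigs listed on days 6 and 9 and 10.6% of the other lowered contigs of the table. In the 609 contigs lowered and listed on day 6 alone with a PBS mean under 200 it was 11.2%. PBS fish 4 was the lowest control in 86 contigs, and it was below all other controls by more than 2 times in 27 (13.9%), beside 13.7% of the other 452 lowered contigs with the same minimum level. It was also above all others by more than 2 times in 17 (8.76%), beside 3.10% of the other 452. Several of these 17, among them DN90717_c2_g1_i2 and DN114710_c8_g3_i3, recur below among the contigs with PBS fish 2 and 4 high. The counts of these patterns are thus not independent.

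The widest spread was seen in DN93104_c0_g1_i16, which had 329, 820, 455 and 1.96 normalized counts in the PBS fish and 1.69, 4.68 and 0.910 in the day 6 fish. PBS fish 4 thus lay within the range of the exposed animals, while the other 3 controls were far above it. DN90717_c2_g1_i2 had 49.5, 432, 9.75 and 1059 in PBS and 14.4, 8.42 and 9.10 on day 6. DN114710_c8_g3_i3 had 24.8, 584, 27.1 and 1456 in PBS and 15.3, 16.8 and 10.9 on day 6. In the last pair of contigs PBS fish 2 and 4 were far above fish 1 and 3. PBS fish 3 lay within 2 times the highest day 6 fish in both, and PBS fish 1 did so in DN114710_c8_g3_i3 but not in DN90717_c2_g1_i2.

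That pattern recurred. In 16 of the 194 contigs (8.25%) PBS fish 2 and fish 4 were each more than 2 times above both fish 1 and fish 3, and in 0 of the other 452 abundant lowered contigs. For the other splits of the controls into pairs, the shares were 0 to 2.06% of the 194 and 0.664 to 4.42% of the 452. The pattern of PBS fish 2 and 4 was picked after the values were seen. No test was made of it, since the PBS levels entered the listing on each day. The 16 contigs came from 16 Trinity genes, and fish 4 was the highest control in 14 of them. The highest control was 2.55 to 109 times the lowest. In 9 of the 16 PBS fish 1, and in 11 PBS fish 3, was within 2 times the highest day 6 fish, and in 7 the groups overlapped. DN114805_c2_g2_i5, for example, had 157, 1274, 74.8 and 2420 in the PBS fish and 94.9, 61.8 and 41.9 on day 6. DN92045_c0_g1_i4, the most abundant of the 16, had 5355, 19618, 7518 and 15418 in PBS and 736, 1758 and 1288 on day 6, and its groups did not overlap. Its source was not tested.

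**Figure D3:**
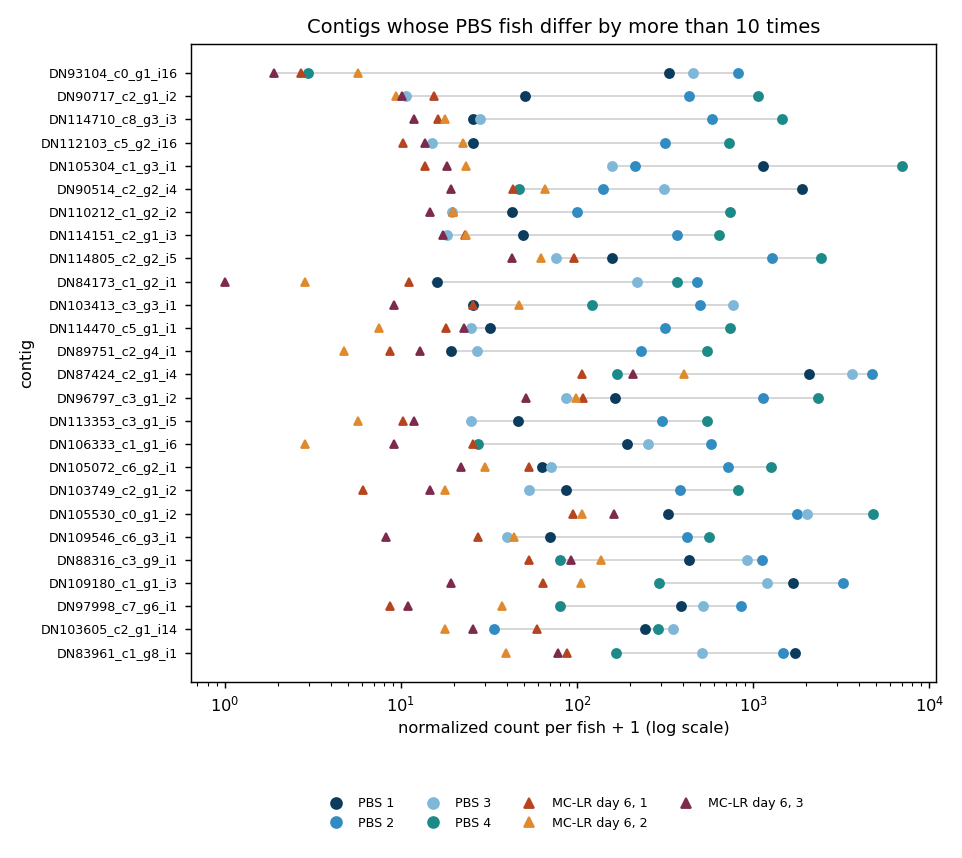
Normalized count + 1 per fish (horizontal log axis) of the 26 contigs whose highest PBS fish was more than 10 times the lowest, ordered by their spread, with circles for PBS fish, triangles for MC-LR day 6 fish and a grey line over the range of the controls. In DN93104_c0_g1_i16 PBS fish 4 lies among the day 6 fish, and in DN90717_c2_g1_i2 and DN114710_c8_g3_i3 PBS fish 2 and 4 lie far to the right of PBS fish 1 and 3.

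The 15 contigs whose groups overlapped had more variable controls than the others. A control at the level of a day 6 fish makes both an overlap and a wide spread, so this largely follows from how the 15 were picked. Their median SD over PBS fish was 2.25 on the log2 scale, against 0.52 in the 179 others, and 0.605% to 22.2% of their level was left. The lowest control was PBS fish 3 in 7 of them, fish 4 in 5, fish 1 in 2 and fish 2 in 1. The highest day 6 fish was fish 2 in 11 and fish 1 in 4. DN106779_c1_g3_i2, the most abundant of the 15, had 3939, 5401, 4858 and 975 in PBS and 492, 1312 and 725 on day 6, so that day 6 fish 2 lay above PBS fish 4. Of these 15 contigs, 1 was among the 107 with an adjusted p under 0.001 in edgeR's quasi-likelihood test. Overlap and spread enter that test, so this is no separate result.

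The 194 contigs came from 187 Trinity genes. In 7 genes 2 contigs were among the 194, and in 20 genes another contig was listed that was not. The counting by contig does not state how reads that match several isoforms were divided, and what sharing of reads adds to the isoform levels was not tested. The gene DN114592_c6_g2 held the contigs DN114592_c6_g2_i8 and DN114592_c6_g2_i11. DN114592_c6_g2_i8 had 62800, 46268, 74170 and 88696 normalized counts in the PBS fish and 630, 550 and 48.2 on day 6, with 0.602% left (log2 difference -8.00, SE 1.21). Both isoforms had their highest control in PBS fish 4 and their lowest exposed animal in day 6 fish 3, and 0.590% of their summed level was left.

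All 22 other contigs of these genes that were listed on day 6 were lower in the exposed fish. In the whole day 6 table, 2555 of the 3866 contigs were lowered. The 15 other contigs listed on day 9 and the 2 listed on day 1 were lower, too. Except for DN84429_c2_g1_i9, these were already among the 22, and each day was set against the same PBS fish. The share of lowered contigs among all those listed on day 1 or day 9 was not taken. Of the 20 genes, 12 had another contig listed on day 9, so a gene with a contig listed on day 6 alone could have another contig listed on a later day. DN92740_c2_g3_i4 had 30596, 130574, 125498 and 95563 normalized counts in PBS and 2010, 3571 and 1176 on day 6, with 2.36% left (log2 difference -5.35, SE 0.67). Its isoform DN92740_c2_g3_i1, listed on days 6 and 9, was highest in PBS fish 1, where the first was lowest. It had 48715, 14238, 12773 and 43297 in PBS and 758, 1182 and 339 on day 6, with 2.55% left. On day 9 DN92740_c2_g3_i1 had 502, 135 and 3127 in the 3 exposed fish, with 3.78% left. The total of the 2 contigs was 79311, 144812, 138272 and 138860 in the PBS fish, and its highest control was 1.83 times the lowest, against 4.27 times for DN92740_c2_g3_i4 alone.

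DN92810_c0_g1_i2 had 34818, 31418, 32377 and 10325 in PBS and 1853, 5829 and 882 on day 6, with 10.5% left. Its isoform DN92810_c0_g1_i18 had 122733, 88816, 96243 and 30106 in PBS and 6334, 13991 and 2832 on day 6 (9.14% left), and 3540, 2172 and 20728 in the exposed fish of day 9 (9.32% left). In this gene both isoforms followed the same order over fish, and PBS fish 4 was the lowest control in each. Over the 26 genes with several contigs in the day 6 table, the spread over PBS fish was narrower for the gene total than for its most abundant contig of the 194 in 15.

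**Figure D4:**
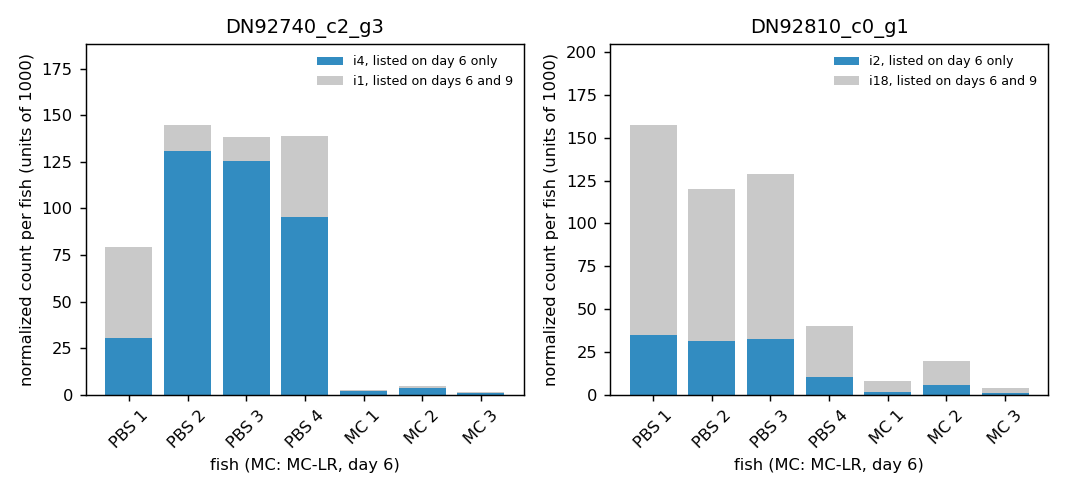
Normalized counts per fish (vertical axis, from 0, in units of 1000) of 2 Trinity genes, stacked by isoform contig, with the contig listed on day 6 only in blue and the contig listed on days 6 and 9 in grey. In DN92740_c2_g3 PBS fish 1 holds more of DN92740_c2_g3_i1 than the other controls and less of DN92740_c2_g3_i4. In both genes the stacks of the 3 day 6 fish are below those of the controls. The highest day 6 stack is 4753 against a lowest control of 79311 in DN92740_c2_g3. In DN92810_c0_g1 these are 19820 and 40431, which lie closer together.

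Beside abundant contigs that were lowered on day 6 and also listed on another day, the 194 kept more of their level at the median. A median of 10.5% was left in the 194, against 6.91% in the 313 contigs listed on days 6 and 9, 1.98% in the 90 listed on all 3 days and 8.47% in the 609 listed on day 6 alone with a PBS mean under 200. Every day 6 fish was below every PBS fish in all 313 and all 90, and in 586 of the 609. The levels in PBS and day 6 fish entered the listing, so no test of these differences was made. With similar PBS levels, the medians of the 194 and the 313 were 15.4% and 6.98% under 400 normalized counts, 14.6% and 9.76% between 400 and 1000, 5.50% and 5.38% between 1000 and 5000, and 4.24% and 3.84% between 5000 and 20000. Above 20000 the order turned, with 2.17% in 13 contigs against 6.74% in 9. How the 194 stood on days 1 and 9 was not analysed here, and their absence from those tables does not show that they were unchanged.

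The contigs beside the limit of 200 reads were as unlike each other as the rest. Just inside it, DN78153_c1_g2_i12 had a mean of 206 raw reads and kept 35.5% of its level, and DN85823_c6_g10_i2 had a mean of 204.8 and 6 reads in all on day 6, with 0.889% left. Just outside it, DN108703_c1_g1_i1 had a mean of 199.5 raw reads and 1 read on day 6, with 0.137% left, and DN78734_c0_g1_i3 had a mean of 199 and 30.7% left.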

How the data were processed

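Liver RNA of 13 whitefish was sequenced as polyadenylated, stranded libraries, and the 4 PBS_1d and 3 MC_6d fish, grouped by their labels, were used here. Per the submitters' processing notes and the study's methods, reads were trimmed by the authors (Trimmomatic 0.36) and contigs were assembled from 52 livers. The authors filtered the contigs by abundance with RSEM, kept non-coding contigs without homology and counted reads per contig and fish with SAMtools. These counts were deposited without normalization, for listed contigs alone. The deposited signal, a base mean, is the authors' mean of counts divided by the size factors of DESeq2 1.28.0. The tables also hold the authors' fold changes, standard errors, test statistics and p-values, which were not used. The number of count columns from other samples was 0.

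Size factors were obtained as the solution that returns the deposited day 6 base means from the counts (largest relative error 7.55e-15), and counts were divided by them. A pseudocount of 1 was added for log2 values, and SEs are over fish. All 3866 contigs of the day 6 table were fitted with edgeR 4.0.16 (quasi-likelihood test, two-sided, R 4.3.3) with size factors as scaling, and with DESeq2 1.42.0 as an alternative. The design foresaw counts of all tested contigs, whereas the tables hold the listed contigs only, so p-values were adjusted over these. The fits were tried on simulated counts with the same scatter for all contigs. Of 100 contigs changed 4 times, edgeR recovered 52% and DESeq2 56%, and of 100 changed 16 times both recovered 100%. All other contigs were simulated without a change, unlike the day 6 table, and edgeR called 10 and DESeq2 16 of them. This was scored at a looser threshold than that of the calls above, so it does not measure how many of those were missed. Other alternatives were TMM, clean reads of the study's sequencing statistics as scaling, other pseudocounts and read limits, a filter on low counts, a replicate block and leaving out each fish. Exact intervals of pooled read ratios are 95% binomial and cover counting error only. Named contigs were the 8 with the highest PBS level, the 5 with the lowest and the 5 with the highest level left, the 3 with the widest spread in each group, those of the Trinity gene with 2 such contigs and the highest level, and the 2 on either side of the read limit. Others were named after their values were seen. The members and lists were chosen with earlier results of these data known. Of the contig identifiers, 0 matched the RefSeq gene table used, and contig sequences were not used here. The precision is that of 4 and 3 fish, each a separate animal.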

Additional observations from a re-analysis of the deposited data

Results flagged for a closer look

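In DN85522_c7_g1_i1, 1 control lay far from the others by Dixon's criterion for 4 samples: PBS fish 2 had 769 normalized counts, while PBS fish 1, 3 and 4 had 618, 601 and 627. The day 6 fish, at 308, 227 and 299, were below all 4. This was 1 of the 26 contigs named by rule, and over all 194 contigs 11 (5.67%) had such a PBS fish, where chance gives about 1 in 20.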

How the results depend on the processing

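TMM of the listed contigs assumes that most contigs stayed the same, which a table selected for differences does not meet, and it added 1.08 to log2 ratios before the pseudocount. The median log2 difference then became -1.79, the median level left 21.6%, the summed level left 12.3%, the contigs without overlap 101 and those lower in edgeR 57. The log2 difference of DN107573_c210_g1_i6 turned to 0.10, and 14 of the other named contigs moved by more than 1 SD. Clean reads added 0.14, and the median level left became 11.4%.

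The number of contigs was 334 with a limit of 100 reads and 118 with one of 400. DESeq2 called all 194 lower at the threshold at which edgeR called 107. Since the authors had listed these contigs with DESeq2 on the same fish, this was nearly fixed in advance.

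Without each fish in turn, the median log2 difference was -3.04 to -2.72, the median level left 9.11 to 12.1%, the summed level left 5.22 to 6.40% and the contigs without overlap 179 to 186. The edgeR count was 47 to 103, at its lowest without a day 6 fish, which leaves 2 exposed animals. The replicate numbers do not pair the fish, which were different animals: the deviations of same-numbered fish had correlations of 0.02, 0.06 and -0.02. With the replicate number as a block, in a fit that left out PBS fish 4, edgeR called 107. Without that fish and with no block it called 103. For the counts under other scalings, fits or sets of fish, no share over all contigs was taken. They have no background beside them and describe the settings only. Levels left that rest on under 10 reads are limited by depth.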
